A study of Mus musculus with 6 samples.

Results

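The Bcl2 family genes set whether a cell under stress keeps its mitochondria intact or dies by apoptosis. The 10 genes described here were chosen by name, through the mouse symbols of the count table: *Bcl2*, *Bcl2l1*, *Mcl1*, *Bcl2l11*, *Bid*, *Bad*, *Bak1*, *Bax*, *Bbc3* and *Pmaip1*. Of these, 9 were analysed, out of 18324 gene rows in all. *Pmaip1*, which encodes the BH3-only protein Noxa, was not analysed here.

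The samples were B16-F10 cells, an established mouse melanoma line grown in DMEM with fetal bovine serum, whose cells differ in melanin content. Light scatter by melanin was used to sort them into high-pigmented cells (HPC) and low-pigmented cells (LPC), with 3 libraries of each, and the labels name no drug and no genetic change in either. Each HPC library shares a title suffix with 1 LPC library, and these are called pairs 1, 2 and 3. No unsorted cells and no normal melanocytes were part of the comparison, and nothing in the labels says that libraries came from separate cultures. The p values therefore measure the spread between these libraries, which may be partly technical. The RNA came from bulk populations, in which fewer cells expressing a gene and less RNA per cell cannot be told apart.

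Proteins of this family act on the outer mitochondrial membrane. The survival proteins Bcl-2, Bcl-xL (from *Bcl2l1*) and Mcl-1 hold back Bax and Bak, which otherwise form pores that release cytochrome c and start the caspase cascade. BH3-only proteins such as Bim (*Bcl2l11*), Bid, Bad and Puma (*Bbc3*) tip this balance towards death by binding the survival proteins, and some of them also activate Bax and Bak directly. In the melanocyte lineage *Bcl2* is a known target of the transcription factor MITF, and melanocytes of mice lacking *Bcl2* are lost after birth.

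What these genes share in sequence is short. Each encodes the BH3 motif, the helix through which family members bind one another, and the coding bases of its core are shown to make the likeness and its limits visible. Each line gives 24 bases (8 codons) of the coding strand, 5′ to 3′, from the main transcript in GENCODE vM21 (GRCm38). Capitals mark the leucine codon that opens the motif and the pair of codons (glycine, alanine or serine, then aspartate) that follow after 3 codons.
Bcl2l1 (chr2:152829700-152829723, minus strand): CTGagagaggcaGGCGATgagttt
Mcl1 (chr3:95659436-95659459, plus strand): CTGcggcgcgtgGGCGACggcgtg
Bcl2 (chr1:106712578-106712601, minus strand): CTCcgccgggctGGGGATgacttc
Bax (chr7:45466000-45466023, minus strand): CTCcggcgaattGGAGATgaactg
Bak1 (chr17:27022534-27022557, minus strand): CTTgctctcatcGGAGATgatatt
Bcl2l11 (chr2:128147150-128147173, plus strand): CTGcggcggatcGGAGACgagttc
Bid (chr6:120897292-120897315, minus strand): CTCgcccaaataGGCGATgagatg
Bad (chr19:6950792-6950815, plus strand): CTCcgaaggatgAGCGATgagttt
Bbc3 (chr7:16313773-16313796, plus strand): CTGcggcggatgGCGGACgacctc

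The pattern searched for also required aspartate, glutamate or glycine in the next codon. In that form it occurred once in the main protein of each of the 9 genes. Between 2 members these 24 bases were identical at 45.8% (several pairs tied, *Bak1* and *Bbc3* among them) to 79.2% (*Bcl2l11* and *Bbc3*) of positions, with a median of 58.3% over 36 comparisons, and at 62.5% between *Bcl2* and *Bcl2l1*. No member shared a stretch of at least 100 nucleotides at 95% identity with another member.

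The 9 genes lie on 7 chromosomes of GRCm38, the build listed in the submitters' processing notes. The survival genes are *Bcl2l1* (ENSMUSG00000007659.18, chr2:152780668-152831728, minus strand), *Mcl1* (ENSMUSG00000038612.16, chr3:95658788-95663176, plus) and *Bcl2* (ENSMUSG00000057329.7, chr1:106538178-106714274, minus). *Bax* (ENSMUSG00000003873.11, chr7:45461697-45466898, minus) and *Bak1* (ENSMUSG00000057789.14, chr17:27019810-27029009, minus) are the pore formers. The BH3-only genes are *Bcl2l11* (ENSMUSG00000027381.16, chr2:128126038-128162547, plus), *Bid* (ENSMUSG00000004446.12, chr6:120891930-120916853, minus), *Bad* (ENSMUSG00000024959.14, chr19:6941861-6951899, plus) and *Bbc3* (ENSMUSG00000002083.13, chr7:16308393-16318205, plus). Reads came from near the polyadenylated end, so the last exon matters most. It measured 5221 nucleotides in *Bcl2* and 270 in *Bax*. *Bcl2l1* has 9 annotated transcripts with 7 separate 3′ ends, and its long and short protein forms, Bcl-xL and Bcl-xS, were counted together.

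Some counts are uncertain because annotated exons overlap and the use of strand in counting is not given in the sources used here. In the last exon of *Bcl2*, 497 nucleotides overlap the opposite-strand gene *D630008O14Rik*, which had 13 counts in all libraries together. Exons of *Bid*, *Bad* and *Bak1* overlap *Bcl2l13*, *Gpr137* and *Ggnbp1* on the opposite strand, and *Bax* overlaps *Gm45808* on its own strand (194 nucleotides of shared sequence), in each case outside the last exon. *Bcl2l1*, *Mcl1*, *Bcl2l11* and *Bbc3* overlap no other annotated exon.

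Each library held between 3819605 and 7311131 gene counts. The libraries of pair 2 stood apart: a single unmatched row, RP23-81C12.3, took 53.9% of the HPC and 27.1% of the LPC library's gene counts, against 3.54% to 5.03% in the other 4. The 9 members together had 462 and 654 counts in those pair 2 libraries and 1832 to 2434 in the others, so single members of pair 2 rest on few reads. Fewer genes had any count there, 10620 in HPC and 12778 in LPC, against 14130 to 15002 in the others. All 7 melanocyte marker genes (*Mitf* and *Sox10* of the lineage's transcription factors, *Tyr*, *Tyrp1*, *Dct*, *Pmel* and *Mlana* of the pigment granule) had counts in every library, with summed levels of 4443 to 20733 CPM in HPC and 6189 to 17282 CPM in LPC. CPM is a count scaled to a common library size, here after TMM scaling, which evens out a few dominant genes. For immune, fibroblast, epithelial and endothelial cells, 8 marker genes were analysed. In the HPC library of pair 2 their summed levels were 26.8 (immune), 33.2 (fibroblast) and 26.8 CPM (epithelial and endothelial). The immune sum was *Cd68* alone (46 counts). The fibroblast sum came from *Pdgfra* (36) and *Col1a2* (21), and the last from *Cdh1* (26) and *Pecam1* (20). *Lyz2*, *Col1a1* and *Epcam* had 0 counts there, so none of these sums was shared by all analysed markers of its list. In the other 5 libraries each of these sums was at most 6.43 CPM, and the immune markers *Ptprc*, *Cd3e* and *Adgre1* were not analysed here. A single count made 0.582 CPM in the HPC library of pair 2 and at most 0.286 CPM in the others, so few reads weigh more there.

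The question put to the family was whether cells with more melanin carry other amounts of survival and death transcripts than cells with less. *Bcl2l1*, which encodes Bcl-xL, was the member that differed most regularly. It averaged 66.7 CPM in HPC and 36.1 CPM in LPC, and it was higher in HPC in every pair. The HPC and LPC values of each of the other 8 members overlapped, and 6 of them changed direction from pair to pair. edgeR's quasi-likelihood test over all 6 libraries, with Benjamini-Hochberg adjustment, called 0 of 9 members at an adjusted p of 0.05, against 0% of the 11324 genes tested. At an unadjusted p under 0.05 there were 0 members, against 0.336% of genes. The pairs were not part of this test, so differences between pairs stayed in its error. DESeq2 also called 0 members.

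*Bcl2l1* had 558, 99 and 443 counts in the HPC libraries of pairs 1, 2 and 3, and 269, 110 and 309 counts in LPC. On the CPM scale its levels were 90.8, 57.6 and 51.8 in HPC and 44.5, 31.4 and 32.4 in LPC. The lowest HPC library thus lay above the highest LPC one. Of the 9 members this was the 1 whose groups did not overlap, which 5.74% of all tested genes also showed in either direction. The separation held with DESeq2's size factors and with upper-quartile scaling. It did not hold by total gene counts alone, where the HPC levels of *Bcl2l1* were 119, 25.9 and 67.4 and the LPC levels 59.0, 23.0 and 42.3 CPM, so that the HPC library of pair 2 fell among the LPC ones. Group means were 66.7 ± 21.0 CPM and 36.1 ± 7.24 CPM (SD, n = 3 each). The fitted log2 fold change was 0.89 ± 0.41 (SE), with a 95% interval from -0.05 to 1.83 and an adjusted p of 0.9996 in edgeR's test.

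Within pairs 1, 2 and 3 the log2 difference of *Bcl2l1* was 1.02, 0.87 and 0.67. The exact binomial 95% intervals of these differences, which cover counting error only, ran from 0.82 to 1.25, from 0.47 to 1.28 and from 0.46 to 0.89. In each pair the excess in HPC was larger than counting error. In pair 2 it depended on scaling: by total gene counts alone the difference was 0.17. The median over all tested genes was then -0.86 in that pair, against -0.20 with TMM scaling. Relative to the median of the same scaling *Bcl2l1* stood 1.03 higher by total counts and 1.07 higher by TMM. A change of scaling moves all genes of a library by about the same amount. These values therefore had to be close, and they do not show which scaling is right for pair 2.

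With pair as a block and all 6 libraries, the log2 fold change of *Bcl2l1* was 0.86 ± 0.23 (SE, unadjusted p 0.0156, edgeR adjusted p 0.927). It was the 1 member of 9 with an unadjusted p under 0.05 in that fit, against 1.88% of genes. Leaving out pair 2 and keeping the block, *Bcl2l1* passed the threshold, at 0.84 ± 0.19 (SE, edgeR adjusted p 0.0261). There it was the 1 member of 9 called, against 1.3% of 11906 genes. With so few libraries the SE of that fit leans on the spread shared across genes. The same fit gave *Bcl2l1* 0.78 ± 0.53 without pair 1 (SE, edgeR adjusted p 0.9997). Without pair 3 it gave 0.96 ± 0.48 (SE, edgeR adjusted p 0.9993). Among the other fits, limma-voom with sample weights and the block came nearest, at 0.87 ± 0.19 (SE, adjusted p 0.0754). The plot of *Bcl2l1* by fit shows these values side by side.

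**Figure D1:**
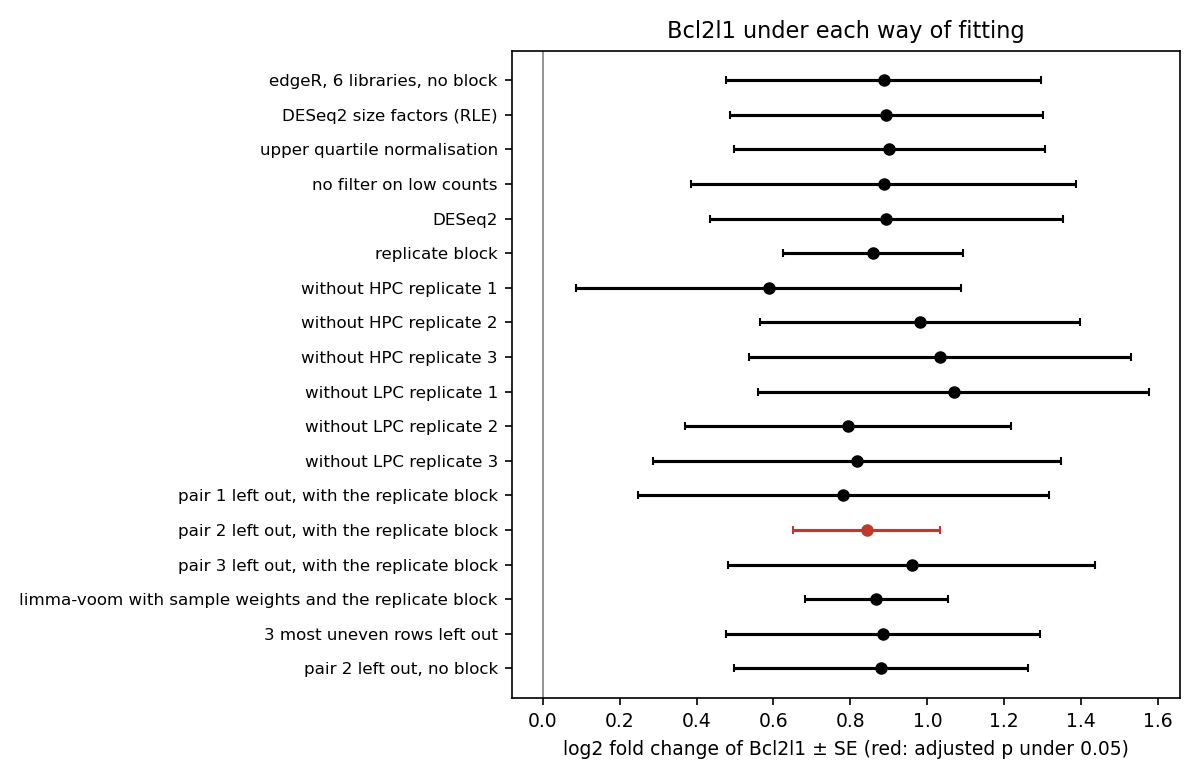
Log2 fold change of *Bcl2l1* (x axis, HPC minus LPC, points with SE bars) under each way of fitting (y axis), where a replicate number is a pair number. All 18 estimates lie between 0.59 and 1.07, and 1 of them, with pair 2 left out and the block kept, has an adjusted p under 0.05 (red).

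*Mcl1* encodes a short-lived survival protein and was the most abundant member on average. Its counts were 590, 33 and 917 in the HPC libraries of pairs 1, 2 and 3 and 637, 218 and 740 in LPC. These are 96.0, 19.2 and 107 CPM against 105, 62.3 and 77.7 CPM. The groups overlapped, and the HPC library of pair 2 held the lowest value by far. The log2 fold change was -0.13 ± 0.61 (SE), with a 95% interval from -1.53 to 1.26. Within pairs 1, 2 and 3 the differences were -0.13, -1.68 and 0.46, so the direction was not shared. Leaving out the HPC library of pair 2 gave a fitted log2 fold change of 0.32.

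*Bcl2*, the founding survival gene of the family, had 209, 27 and 90 counts in HPC and 213, 57 and 150 in LPC of pairs 1, 2 and 3. Its CPM levels were 34.0, 15.7 and 10.5 against 35.2, 16.3 and 15.7. Values of the same pair lay close together in pairs 1 and 2, and the groups overlapped. The closeness in pair 2 depended on scaling, since by total gene counts alone *Bcl2* differed there by -0.72 on the log2 scale. The within-pair differences of -0.05, -0.05 and -0.57 were all below 0, as in 17.2% of tested genes, and *Bcl2* was the 1 member of 9 with that pattern. Its log2 fold change was -0.16 ± 0.64 (SE), with a 95% interval from -1.64 to 1.32.

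**Figure D2:**
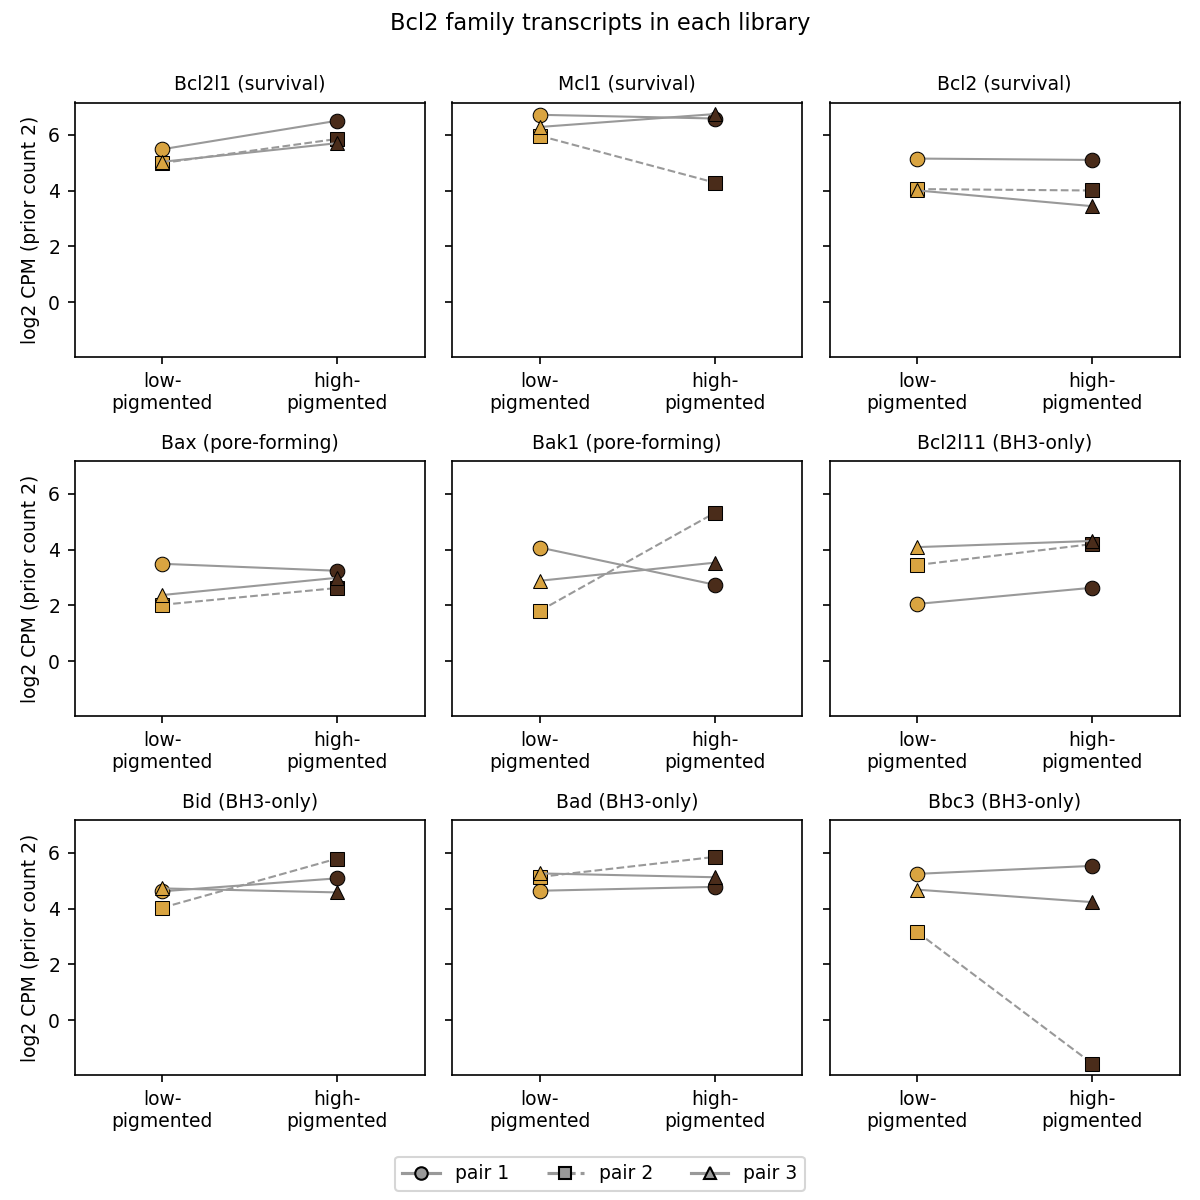
Level of each member in log2 CPM (y axis, prior count 2) in LPC and HPC libraries (x axis), with a line joining the 2 libraries of a pair (dashed for pair 2). All 3 lines of *Bcl2l1* slope upwards, from 4.99 to 5.49 in LPC to 5.70 to 6.51 in HPC libraries, while pair 2 departs from the other pairs in *Mcl1*, *Bak1* and *Bbc3*.

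The pore-forming genes were among the 3 least abundant members. *Bax*, whose protein moves from the cytosol to mitochondria when active, had 56, 10 and 65 counts in HPC and 66, 13 and 46 counts in LPC libraries of pairs 1, 2 and 3. Its level was 7.51 ± 1.65 CPM against 6.48 ± 3.87 CPM (SD, n = 3 each). This gave a log2 fold change of 0.22 ± 0.85 (SE), with a 95% interval from -1.72 to 2.15. The groups overlapped, and *Bax* had the lowest average level of the 9 members.

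*Bak1*, whose protein sits in the mitochondrial membrane, went in different directions in different pairs. Its counts were 39, 68 and 96 in HPC and 100, 11 and 67 in LPC libraries, or 6.35, 39.6 and 11.2 CPM against 16.5, 3.14 and 7.03 CPM. The within-pair log2 differences of -1.34, 3.52 and 0.65 were each larger than counting error, with exact binomial 95% intervals from -1.95 to -0.83, from 2.72 to 4.72 and from 0.21 to 1.15. These intervals take reads as independent and do not cover transcripts lost or copied unevenly while a library was made. The log2 fold change of 1.07 ± 0.93 (SE; 95% interval from -1.07 to 3.21) was the largest of the family but rested on the HPC library of pair 2. Without that library it was -0.02. The same library had the highest summed CPM of other cell types' markers, from few reads of some of these markers only. A link to *Bak1* was not tested.

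BH3-only genes showed no shared direction. *Bcl2l11*, which encodes Bim, had 36, 31 and 167 counts in HPC and 23, 37 and 159 counts in LPC libraries of pairs 1, 2 and 3. Its within-pair differences of 0.58, 0.75 and 0.22 were all above 0, although by total gene counts alone that of pair 2 was 0.066. With *Bcl2l1*, that made 2 of 9 members higher in every pair, against 12.9% of tested genes. Counting *Bcl2* as well, 3 of 9 members kept 1 direction in all pairs, against 30.1% of genes. The level was 14.5 ± 7.50 CPM against 10.4 ± 6.45 CPM (SD, n = 3 each), and the log2 fold change of 0.48 ± 0.81 (SE; 95% interval from -1.40 to 2.35) was smaller than its SE. Without the LPC library of pair 1 it was 0.08.

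*Bid* links death receptors to mitochondria once caspase-8 has cut its protein. It had 207, 95 and 202 counts in HPC and 147, 56 and 249 in LPC libraries, or 33.7, 55.3 and 23.6 CPM against 24.3, 16 and 26.1 CPM. The groups overlapped, since the HPC value of pair 3 lay below the LPC values of pairs 1 and 3. Within-pair differences were 0.47, 1.77 and -0.14, and the log2 fold change was 0.75 ± 0.50 (SE; 95% interval from -0.41 to 1.91). With pair 2 left out and the block kept it was 0.15 ± 0.24 (SE, edgeR adjusted p 0.886).

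*Bad*, whose protein is held inactive by phosphorylation downstream of growth factors, had 167, 99 and 296 counts in HPC and 149, 122 and 363 counts in LPC libraries. Levels were 39.8 ± 15.9 CPM against 32.5 ± 7.04 CPM (SD, n = 3 each), and the groups overlapped. The log2 fold change was 0.28 ± 0.46 (SE; 95% interval from -0.78 to 1.35). The pair 2 difference of *Bad* was 0.72 with TMM and 0.022 by total gene counts alone. Without the HPC library of pair 2 the fitted log2 fold change was -0.07.

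*Bbc3*, the gene of Puma and a p53 target, had 283, 0 and 158 counts in HPC and 228, 30 and 241 counts in LPC libraries of pairs 1, 2 and 3. The HPC library of pair 2 was the only one of the 54 member values at 0. With 0 taken as the floor of 3 counts, or 1.75 CPM, that library was 4.91-fold lower than its LPC partner at 8.58 CPM. With counting error in both libraries, the exact binomial 95% upper limit of the log2 difference was -1.91. That limit covers counting error only. Genes outside the members were also at 0 in a single library of pair 2. *Diablo* had 0 counts in HPC and 141 in LPC, and *Casp9* had 64 and 0. In pairs 1 and 3 the log2 differences of *Bbc3* were 0.29 and -0.45, so the direction was not shared there either. The log2 fold change over all libraries was -0.13 ± 1.22 (SE; 95% interval from -2.95 to 2.68), the widest interval of the family, and without the 0 library it was 0.43.

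**Figure D3:**
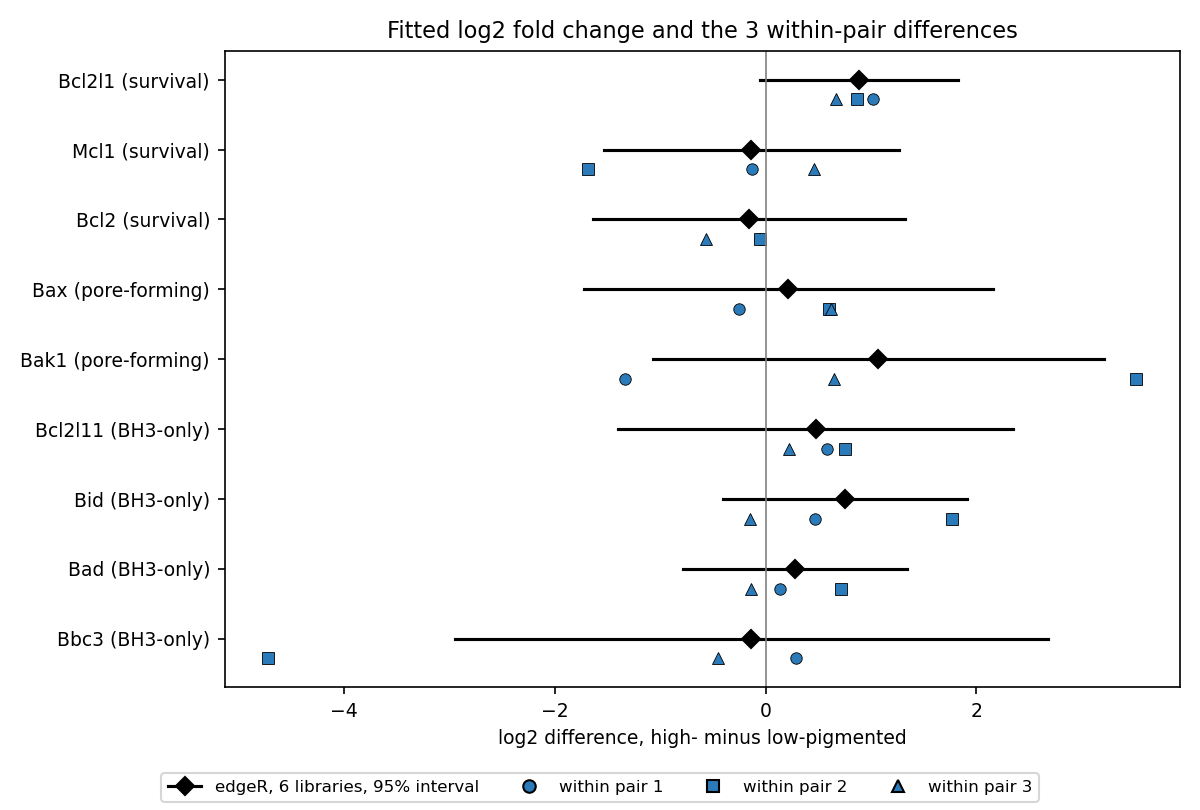
Fitted log2 fold change of each member (x axis, HPC minus LPC, diamonds with 95% intervals from edgeR over 6 libraries) and the 3 within-pair differences below it. Every interval, from a fit without the pairs, includes 0, that of *Bcl2l1* by the least, at -0.05. The pair 2 value of *Bbc3* at -4.72 comes from a library with 0 counts and depends on the prior count.

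Across all 6 libraries the average level fell in the order *Mcl1* (77.9 ± 33.5 CPM), *Bcl2l1* (51.4 ± 21.9 CPM), *Bad* (36.2 ± 11.7 CPM), *Bid* (29.8 ± 13.7 CPM), *Bbc3* (22.7 ± 17.4 CPM), *Bcl2* (21.2 ± 10.6 CPM), *Bak1* (14.0 ± 13.4 CPM), *Bcl2l11* (12.4 ± 6.65 CPM) and *Bax* (7.0 ± 2.72 CPM; SD, n = 6 each). A count of 3′-end reads does not scale with transcript length, so these levels can be set side by side, within the limits of how each 3′ end is annotated. Each gap between neighbours in this order was smaller than the SD of that gap over the 6 libraries. *Mcl1* had more counts than *Bcl2l1* in 5 of 6 libraries, and *Bcl2l1* more than *Bad* in 3 of 6. In the HPC library of pair 2, *Bcl2l1* and *Bad* tied for the most counts, at 99 each.

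For *Bcl2* and *Bcl2l11*, pairs 1 and 3 differed from each other more than HPC from LPC inside any pair. Averaged over both libraries of a pair, the log2 CPM of pair 1 minus that of pair 3 was 1.40 for *Bcl2* and -1.86 for *Bcl2l11*, where the median of all tested genes was -0.0037. Pair 2 minus the mean of pairs 1 and 3 was -4.13 for *Bbc3* and -1.46 for *Mcl1*, where the median gene was at -0.44. Inside pair 2, HPC minus LPC was larger still, at -4.72 and -1.68, with 0 and 33 counts in the HPC library. For these genes the offset of pair 2 thus lay partly in its HPC library. What the pairs stand for is not stated, so these differences are descriptions of libraries.

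Shares within the family do not depend on how libraries are scaled. *Bcl2l1* made up 26.0%, 21.4% and 18.2% of the 9 members' counts in the HPC libraries of pairs 1, 2 and 3, and 14.7%, 16.8% and 13.3% in LPC. The Wilson 95% intervals, which cover counting error only, were 24.2% to 27.9%, 17.9% to 25.4% and 16.7% to 19.8% in HPC. In LPC they were 13.1% to 16.4%, 14.1% to 19.9% and 12% to 14.7%. The intervals of a pair were apart in pairs 1 and 3 and overlapped in pair 2. *Mcl1* held 27.5%, 7.14% and 37.7% against 34.8%, 33.3% and 31.8%, so its share was lower in the HPC library of pairs 1 and 2 and higher in pair 3. A share also rises when another member falls. In pair 2 the small share of *Mcl1* in HPC raised the shares of the other members there. The larger share of *Bcl2l1* in that pair therefore does not describe *Bcl2l1* alone. The 9 members summed to 300.8 ± 42.4 CPM in HPC and 244.6 ± 57.9 CPM in LPC (SD, n = 3 each). Unlike the shares, this sum depended on scaling. By total gene counts alone it was 317 ± 175 against 285 ± 135 CPM, and pair 2 then had the lower value in HPC, at 121 against 137 CPM.

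**Figure D4:**
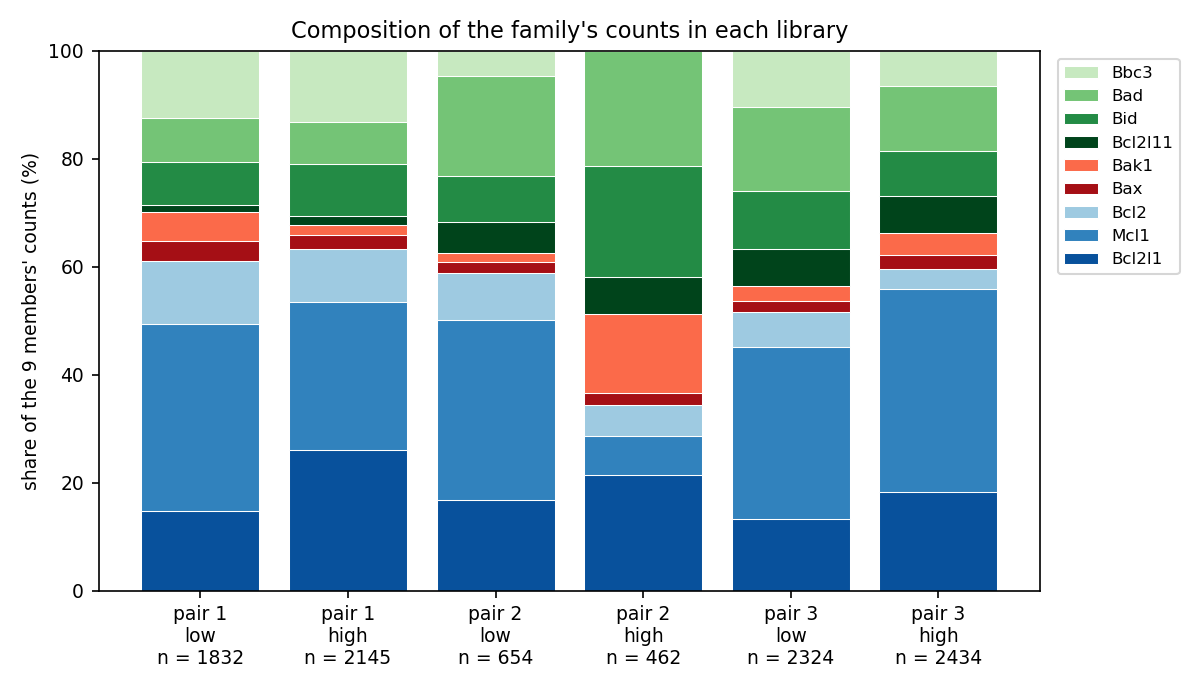
Share of the 9 members' counts held by each gene (y axis, percent) in each library (x axis, with the number of counts). *Bcl2l1* (dark blue, at the base) takes a larger share in the HPC than in the LPC library of each pair. The HPC library of pair 2 differs from the others in its small share of *Mcl1*, which raises the other shares there, and its large share of *Bak1*.

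Ratios between members were taken within each library and chosen after the values had been seen. The log2 ratio of *Bcl2l1* to *Bcl2* counts was 1.41, 1.86 and 2.29 in the HPC libraries of pairs 1, 2 and 3 and 0.34, 0.94 and 1.04 in LPC. The within-pair differences were 1.08, 0.91 and 1.25. Their sign was fixed by the choice of genes, since *Bcl2l1* was higher and *Bcl2* lower in HPC in every pair, so this ratio adds no separate evidence. The ratio of *Bcl2l1* to *Mcl1* was also higher in the HPC library of each pair, by 1.16, 2.55 and 0.21, but its groups overlapped. The 3 survival genes together over the 2 pore-forming genes gave log2 ratios of 3.83, 1.02 and 3.17 against 2.75, 3.98 and 3.40, with differences of 1.08, -2.95 and -0.23. The ratio of *Bcl2* to *Bax*, a common summary of the balance between survival and death, differed by 0.21, -0.70 and -1.23. Neither of these balances moved in 1 direction.

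**Figure D5:**
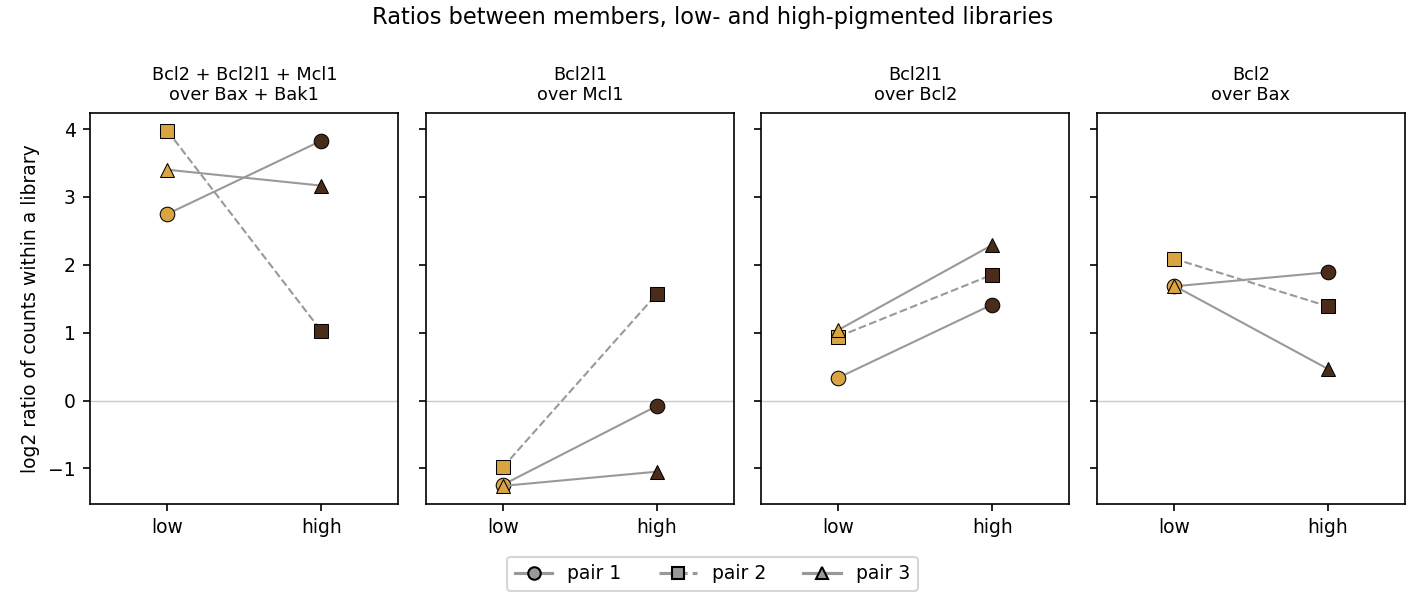
Log2 ratio of counts within each library (y axis) in LPC and HPC (x axis), with a line joining the libraries of a pair (dashed for pair 2). *Bcl2l1* over *Bcl2* lies between 1.41 and 2.29 in HPC and between 0.34 and 1.04 in LPC libraries, while the summed survival to pore-forming ratio goes up in pair 1 and down in pairs 2 and 3.

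The rest of the pathway was described by 4 lists holding 55 genes, of which 50 had a row and 43 were tested. In edgeR's test over 6 libraries 0 of these 43 genes had an adjusted p under 0.05 and 0 an unadjusted p under 0.05. In pairs 1 and 3 with the block, 0 had an adjusted p under 0.05 and 4 an unadjusted one, against 12.1% of genes. By the fitted log2 fold change 26 of 43 were higher in HPC, with a median of 0.17, against 47% of all tested genes and a median of -0.04. Of the members 6 of 9 were higher, with a median of 0.28. These counts carry no test, and the genes with the smallest p in each list are given next as examples.

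Among 7 tested relatives of the family, *Bcl2l13*, a mitochondrial relative whose exons overlap *Bid*, had 25.5 ± 3.90 CPM against 17.8 ± 4.81 CPM (SD, n = 3 each), a fitted log2 difference of 0.51 ± 0.50 (SE). *Bnip3l*, a mitophagy receptor, had 0.33 ± 0.43 (SE). Both were higher in HPC in 3 of 3 pairs. *Bcl2a1a*, *Bcl2a1b*, *Bcl2a1d* and *Bcl2l10*, and *Trp73* among the regulators, were not analysed here.

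Downstream of the mitochondrial pore, 7 of 14 tested genes of the apoptosome, caspases and their inhibitors were higher in HPC, with a median log2 fold change of -0.02. *Xiap*, an inhibitor of caspases, had 66.8 ± 28.1 CPM against 48.5 ± 21.9 CPM (SD, n = 3 each) and was higher in 3 of 3 pairs, by 0.78, 0.25 and 0.34. *Casp9*, the initiator caspase of the apoptosome, had 64, 64 and 134 counts in HPC and 62, 0 and 141 counts in LPC libraries of pairs 1, 2 and 3. In pairs 1 and 3 it differed by 0.02 and 0.08, so its log2 fold change of 1.31 ± 1.26 (SE) rested on pair 2, where the LPC library had 0 counts.

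In the death receptor branch 5 of 7 tested genes were higher, with a median log2 fold change of 0.35. *Casp8*, the initiator caspase that cuts Bid, had 32.4 ± 9.21 CPM against 22.3 ± 6.55 CPM (SD, n = 3 each), and its within-pair differences were 0.87, 0.39 and 0.32. *Fadd*, the adaptor that recruits caspase-8, differed by 0.20, 1.64 and -0.26. Of 15 tested regulators of the members' transcription or protein turnover, 9 were higher, with a median of 0.26. *Usp9x*, a deubiquitinase that stabilises Mcl-1, had 89.8 ± 11.6 CPM against 70.0 ± 9.53 CPM (SD, n = 3 each), a fitted log2 difference of 0.36 ± 0.35 (SE). *Foxo1*, a transcription factor of the family that acts on *Bcl2l11*, differed by -0.05, 1.82 and 0.10 within pairs 1, 2 and 3. Each of these 8 named genes had an adjusted p of 0.9996 in edgeR's test.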

How the data were processed

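The authors deposited raw counts of reads for each gene in 6 libraries, made from the 3′ ends of mRNA (Lexogen QuantSeq, forward, on an Illumina NextSeq), per the labels' protocols. HTSeq as the counter comes from the table's name and tally rows. STAR and GRCm38 are listed in the submitters' processing notes. Counting mode, strand, versions and annotation are not given in the sources used here, and molecular identifiers are not mentioned. Rows of no-feature reads (12.4% to 29.5% of tallied reads) and ambiguous reads (0.487% to 2.51%) were left out.

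The main test was edgeR 4.0.16's robust quasi-likelihood fit (glmQLFit, glmQLFTest) in R 4.3.3 after filterByExpr (minimum count 10) and TMM scaling, with 2 groups, no covariate and Benjamini-Hochberg adjustment over all tested genes. Pairs entered only the alternative fits with the block, so the main test left differences between pairs in its error. The filter kept all 9 members that had a row. SEs come from the test statistic. Differences inside a pair were taken on log2 CPM (prior count 2), and ratios within a library add 0.5 counts. Alternatives used limma 3.58.1 and DESeq2 1.42.0. The fits were run on counts simulated from their own estimated spread. That run was checked for bias and false calls and set no limit on changes missed. Positions and shared sequence come from GENCODE vM21 (BLAST+ 2.17.0, Biopython 1.88). Figures were drawn with matplotlib 3.10.9.

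Same-suffix libraries deviated together from their group means (Pearson correlations of 0.466 for pair 1, 0.316 for pair 2 and 0.422 for pair 3, over genes, each above 0.1), so the suffix was taken to pair them. Deviations from a group mean cancel out within the group, so these correlations are not independent. Correlations across different suffixes are not given here, so these values alone do not show that the suffix marks true pairs. No library was taken as deposited more than once, since those of a group differed beyond sampling noise (chi-square over its degrees of freedom 57.1 or more), which does not show separate cultures. The members, pathway lists and alternatives were chosen with earlier results of these data known. Of the pathway lists, the rule named any gene called over 6 libraries or without pair 2, and in each list the 2 with the smallest p and a mean of at least 10 CPM.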

Additional observations from a re-analysis of the deposited data

How the results depend on the processing

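The count of members with an adjusted p under 0.05 was 0 over all 6 libraries and 1 (*Bcl2l1*) with pair 2 left out and the pairs as a block. It was 0 in the other 16 alternatives. With the replicate block on all 6 libraries it stayed at 0 (*Bcl2l1* 0.86). Over the whole table the count of called genes was 0, and it was 5 with DESeq2, 34 with limma-voom, sample weights and the block, and 155 with pair 2 left out and the block. Directions of *Bcl2l1*, *Bcl2l11* and *Bid* held in all 17 alternatives. These alternatives share most of their libraries, and none scaled by total gene counts alone. By that scaling the pair 2 differences of *Bcl2l1*, *Bcl2l11* and *Bid* were 0.17, 0.066 and 1.06. When each library was left out in turn, log2 fold changes ranged from 0.59 to 1.07 for *Bcl2l1*, -0.80 to 0.33 for *Bcl2*, -0.50 to 0.32 for *Mcl1*, 0.08 to 1.02 for *Bcl2l11* and 0.37 to 0.98 for *Bid*. They ranged from -0.071 to 0.49 for *Bad*, -0.022 to 1.86 for *Bak1*, -0.058 to 0.82 for *Bax* and -1.31 to 0.43 for *Bbc3*. With pair 2 left out and the block, *Mcl1* was 0.16, *Bad* -0.017 and *Bak1* -0.33. With pair 2 left out and no block, an alternative chosen after the data were seen, they were 0.14, -0.033 and -0.42, and *Bbc3* was 0.022. With limma-voom, sample weights and the block, *Mcl1* was 0.14 and *Bak1* -0.071. Within pair 2, *Bax* was -0.048 by total gene counts alone against 0.60 with TMM. The cause of these reversals was not tested. In pair 2, counts were few for *Bax* (10 in HPC, 13 in LPC), *Bak1* (68 and 11) and *Bbc3* (0 and 30).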
